A study of Mus musculus with 12 samples.

Results

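The astrocyte genes described here are 10 mouse genes that are widely used to mark astrocytes: Aqp4, Gfap, Gja1, Slc1a2, Aldoc, Aldh1l1, Sparcl1, Clu, Apoe and S100b. Their members were the probe sets that the platform annotation maps to only one of these symbols, 29 of the 45101 probe sets on the array. The 10 genes stood among 18193 genes with such a probe set, and the rule names them without a threshold on any measured value, although the choice was made with earlier results of these data known. A fluorescent intensity per probe set was measured on 12 Affymetrix arrays of total RNA from sorted C57BL/6 mouse cells. Zfp335, the mouse gene for the zinc finger protein ZNF335, had been knocked down in 6 of the 12 samples, and the other 6 had received a control knockdown; both were done at E14.5 (embryonic day). Each set of 6 held 3 samples taken 1 day later (short term) and 3 taken 5 days later (long term), which gave 4 groups of 3. The titles call the agent a small interfering RNA, the design text calls it a short hairpin RNA, and the control source is called mouse neurons while the knockdown source is called cells. The stage entry (E15.5) and the harvest entry (postnatal day 0) are the same for all 12 samples and do not separate the time points. The description entries of the 6 long term samples name the opposite group to their titles; titles and source names were followed, and with the descriptions every sign of the 5-day knockdown comparison would turn and the 5-day groups of the time comparisons would change places.

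Astrocytes are glial cells that take up glutamate and potassium, move water, feed neurons and line blood vessels. In the mouse cortex the radial glia that first make neurons switch to making astrocytes around birth, under factors of the NFI and SOX families and under signals that act through STAT3. Aqp4 encodes the water channel of astrocyte endfeet, Gfap an intermediate filament protein, Gja1 the gap junction protein connexin 43 and Slc1a2 the glutamate transporter GLT-1. Aldoc encodes the brain form of aldolase, Aldh1l1 a folate enzyme, and S100b a calcium-binding protein. Sparcl1 (hevin), Clu (clusterin) and Apoe (apolipoprotein E) encode secreted proteins. Several of the 10 are also made by other cells: Gja1, Slc1a2, Aldoc and Sparcl1 by radial glia or neurons, and Apoe by microglia.

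Aqp4 and Sparcl1 were higher at 5 days than at 1 day in both control and knockdown cells, by 5.61 to 11.8 times. Clu was higher at 5 days in the knockdown cells on its brightest probe set. Gfap passed in the controls, but at 1 day it lay below the mark for being tested, so that it was tested because of its 5-day levels. Of the 10 genes none was shown to differ between knockdown and control cells at either time point. The genes did not follow 1 pattern: for Aldoc, Slc1a2, Aldh1l1, Gja1 and Apoe no time difference passed the test on the brightest probe set. In bulk RNA, fewer cells of a type and less RNA per cell cannot be told apart. Values are log2 of the quantile-normalized intensity plus 16 unless stated otherwise, and a gene is read by its brightest probe set unless another is named. Folds are on this scale, which understates the change of dim probe sets. Tests are those of limma, a linear model fitted to all 12 arrays with 8 residual degrees of freedom, with p-values adjusted over 27022 probe sets (Benjamini-Hochberg, threshold 0.05).

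Arrays differed in ways that groups do not explain, and these differences touch the astrocyte genes. The 6 short term arrays fell into 2 sets by the intensity of their hybridisation control probe sets, labelled RNA added before hybridisation. Control 1, control 3 and knockdown 1 read 10.84 to 11.83 on these probe sets (log2 of the deposited intensity, weak set), and control 2, knockdown 2 and knockdown 3 read 12.68 to 12.82 (strong set). Pairs of arrays within a set correlated at r = 0.92 to 0.99 across probe sets and pairs between sets at r = 0.60 to 0.77, although each set holds both control and knockdown samples. On the long term knockdown 2 array the Actb signal at the 3 prime end was 8.76 times that at the 5 prime end and the Gapdh signal 3.90 times, against 1.51 to 2.91 and 1.65 to 2.22 on the other 11 arrays. The instrument files name 1 scanner for all short term arrays and long term controls 2 and 3, and another for the 3 long term knockdowns and long term control 1. They also name 1 fluidics station for the 3 short term controls and another for the 3 short term knockdowns, so station and label cannot be told apart at 1 day. The chip lot of the short term arrays was used for no long term array, so lot and time cannot be told apart.

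The targeted gene, Zfp335, has a single probe set, and its signal was not shown to be lower in the knockdown samples. Its deposited intensity was 139, 46.1 and 127 in the 1-day controls and 136, 53.7 and 41.0 in the 1-day knockdowns. These values split by hybridisation control set without overlap: 139, 127 and 136 on the weak set and 46.1, 53.7 and 41.0 on the strong set. Control 2 thus read like knockdowns 2 and 3, and knockdown 1 like controls 1 and 3. The reason for this split was not tested. The deposited intensity of Zfp335 was 109, 150 and 179 in the 5-day controls and 103, 34.3 and 151 in the 5-day knockdowns. Groups overlapped at both times, and the knockdown minus control difference was -0.64 at each (SE 0.74, limma adjusted p = 0.832 at 1 day and 1 at 5 days). The target thus does not bear out the label, and knockdown names the label throughout.

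**Figure D1:**
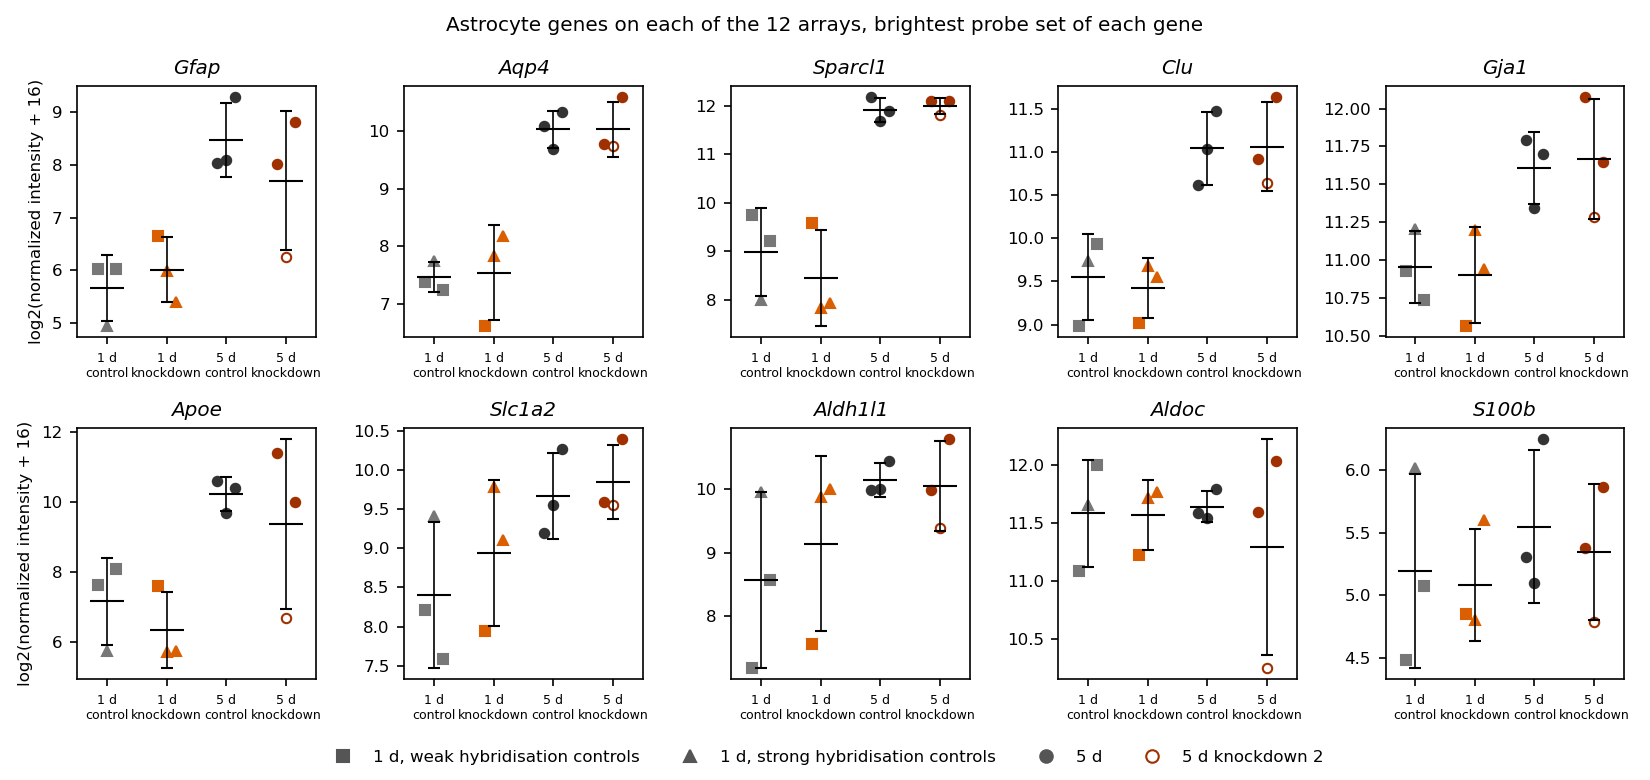
Each point is 1 array, plotted as log2(normalized intensity + 16) of the brightest probe set of each of the 10 astrocyte genes in the 4 groups of 3; the bar and whiskers are mean and SD, squares and triangles are short term arrays with weak and strong hybridisation controls, and the open circle is long term knockdown 2. Aqp4 and Sparcl1 lay higher on every 5-day array than on any 1-day array, whereas Aldoc did not, and Apoe on long term knockdown 2 (6.71) fell within the 1-day range.

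Among the membrane and cytoskeletal genes, Aqp4 separated the time points on every array. It read 7.38, 7.75 and 7.25 in the 1-day controls and 10.09, 9.68 and 10.32 in the 5-day controls. In knockdown cells it read 6.62, 7.84 and 8.17 at 1 day and 9.77, 9.74 and 10.58 at 5 days. All 6 long term arrays were above all 6 short term arrays. The 5-day minus 1-day difference was 2.57 in controls (5.93-fold, SE 0.40, limma adjusted p = 0.00845) and 2.49 in knockdown cells (5.61-fold, SE 0.40, adjusted p = 0.00869). The remaining 2 Aqp4 probe sets were below the filter mark and gave smaller differences. With all probe sets tested, 1425382_a_at differed by 0.77 in controls and 0.63 in knockdown cells (limma adjusted p = 0.445 and 0.421). Likewise 1447745_at differed by 0.40 and 0.039 (adjusted p = 0.629 and 0.952).

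Gfap was close to background at 1 day. Its brightest probe set read 6.03, 4.95 and 6.02 in the 1-day controls and 6.64, 5.98 and 5.41 in the 1-day knockdowns. Both group means, 5.67 and 6.01, were below the filter mark of 6.51, so Gfap entered the test only through its 5-day levels and a difference in time was built into its being tested. The 5-day controls read 8.04, 8.09 and 9.28, all above the 1-day controls, a difference of 2.80 (6.98-fold, SE 0.64, limma adjusted p = 0.0437). The 5-day knockdowns read 8.02, 6.25 and 8.82, and the 6.25 of knockdown 2 lay within the 1-day range, so that the difference of 1.68 (SE 0.64) did not pass (adjusted p = 0.138). With 1 array left out that difference ran from 1.12 (without knockdown 3) to 2.41 (without knockdown 2, the array of high 3 prime to 5 prime ratio), with adjusted p from 0.0505 to 0.399. A second Gfap probe set, 1426509_s_at, also lay below the mark at 1 day, with group means of 5.12 and 4.47, and entered the test in the same way. It was higher at 5 days by 3.95 in controls (15.4-fold, SE 0.61, adjusted p = 0.00767) and by 3.93 in knockdown cells (15.3-fold, adjusted p = 0.00707). With all probe sets tested and no filter, adjusted p was 0.0361 in controls and 0.138 in knockdown cells for the brightest probe set, and 0.00637 and 0.00503 for the second. On the second probe set knockdown 2 read 7.12, below the 8.63 and 9.45 of the other 5-day knockdowns and above every 1-day array.

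Gfap and Aldoc are the astrocyte genes whose promoter holds the STAT palindrome among those with a promoter sequence, so these promoters are shown. STAT3, which carries cytokine signals to the Gfap gene, binds TTCNNNGAA, a palindrome that reads the same on both strands and was searched together with 4 other motifs on both strands of 250 bases before to 50 after each start (RefSeq, GRCm38.p6). Promoters were found for 7 of the 10 genes, without Sparcl1, Clu and Aqp4, 10 promoters in all. The palindrome stood in 2 of these 10 and in 8.3% of 32851 mouse promoters of the same length. Capitals mark it below, in promoters printed 5 prime to 3 prime in the direction of transcription from 250 bases before to 30 after the start. Gfap is at chr11:102897171-102897450 on the minus strand, and Aldoc has 2 starts, at chr11:78322823-78323102 and chr11:78323948-78324227, both on the plus strand.
Gfap: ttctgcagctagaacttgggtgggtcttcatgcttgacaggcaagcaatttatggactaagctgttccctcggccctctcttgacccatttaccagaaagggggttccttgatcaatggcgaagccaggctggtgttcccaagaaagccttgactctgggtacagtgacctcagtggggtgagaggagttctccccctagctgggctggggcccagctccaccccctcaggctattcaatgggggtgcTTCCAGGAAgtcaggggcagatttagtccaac
Aldoc, upstream start: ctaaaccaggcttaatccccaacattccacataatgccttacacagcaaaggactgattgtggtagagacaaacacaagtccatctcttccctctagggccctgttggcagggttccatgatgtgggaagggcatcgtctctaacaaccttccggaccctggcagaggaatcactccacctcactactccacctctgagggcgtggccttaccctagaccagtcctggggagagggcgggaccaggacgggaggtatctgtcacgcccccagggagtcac
Aldoc, downstream start: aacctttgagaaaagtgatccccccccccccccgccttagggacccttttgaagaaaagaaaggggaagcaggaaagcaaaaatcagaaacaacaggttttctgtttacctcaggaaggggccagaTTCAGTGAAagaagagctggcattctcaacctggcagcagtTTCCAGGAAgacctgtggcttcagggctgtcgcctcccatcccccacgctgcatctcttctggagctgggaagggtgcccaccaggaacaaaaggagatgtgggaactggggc
The first base of the Gfap match was at -2 from the start site, and those of the downstream Aldoc start at -124 and -83. The NFI palindrome, TTGGC and GCCAA with 5 bases between them, was in none of the 10 promoters (0.0365% of all), and its half-site TTGGCA was in 3, of Aldoc, Apoe and S100b (14.1% of all). The SOX core AACAAT was in none (10.7% of all) and TATAAA was in 1, of Apoe (13.6% of all). These matches are letters in a window and show no binding, and sequence outside the window was not searched.

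Gja1 gave a small difference that depended on the probe set. Its brightest probe set read 10.92, 11.21 and 10.73 in the 1-day controls and 11.79, 11.34 and 11.70 in the 5-day controls. In knockdown cells it read 10.56, 11.20 and 10.94 at 1 day and 12.07, 11.28 and 11.65 at 5 days. The time points did not overlap in either condition, but the differences of 0.65 in controls (limma adjusted p = 0.250) and 0.77 in knockdown cells (adjusted p = 0.117) did not pass. Of the 6 kept Gja1 probe sets, 4 passed in the knockdown cells, with differences of 0.90 to 1.00 (adjusted p = 0.0377 to 0.0479). The sixth, 1415801_at, went the other way, by -0.40 in controls and -0.27 in knockdown cells, and did not pass in either.

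Slc1a2 and Aldh1l1 followed the hybridisation control sets at 1 day. Slc1a2, the glutamate transporter, read 8.21, 7.58 and 7.94 on the 3 short term arrays of the weak set and 9.41, 9.79 and 9.10 on the 3 of the strong set. Aldh1l1 read 7.19, 8.57 and 7.56 on the weak set and 9.96, 9.87 and 9.99 on the strong set. The sets did not overlap for either gene. This was not particular to these genes: the sets also parted for Sparcl1, Apoe, Gfap, Aqp4 and Gja1, and overlapped for Aldoc and Clu. Apoe read 7.62 to 8.11 on the weak set and 5.72 to 5.75 on the strong set, and Gfap 6.02 to 6.64 and 4.95 to 5.98. Aqp4 read 6.62 to 7.38 on the weak set and 7.75 to 8.17 on the strong set, and Gja1 10.56 to 10.92 and 10.94 to 11.21. At 5 days Slc1a2 read 9.19, 9.55 and 10.27 in controls and 9.60, 9.56 and 10.39 in knockdown cells. Aldh1l1 read 9.98, 10.002 and 10.44 in the 5-day controls and 9.98, 9.38 and 10.78 in the 5-day knockdowns. The strong-set arrays of both genes thus lay inside or next to the 5-day values. The 5-day minus 1-day difference of Slc1a2 was 1.27 in controls (SE 0.56, limma adjusted p = 0.281) and 0.91 in knockdown cells (adjusted p = 0.334). That of Aldh1l1 was 1.57 (SE 0.77, adjusted p = 0.336) and 0.90 (adjusted p = 0.468). With the weak set alone at 1 day the control differences were 1.77 for Slc1a2 and 2.26 for Aldh1l1 (adjusted p = 0.0524 and 0.0489). With the strong set alone, which holds 1 control array at 1 day, they were 0.26 and 0.18. A second Slc1a2 probe set, 1451627_a_at, differed by -0.09 in controls and by -0.88 in knockdown cells, and neither passed.

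Aldoc, a glycolytic enzyme, was read by 2 kept probe sets that disagreed. The brighter one read 11.09, 11.66 and 12.01 in the 1-day controls, 11.22, 11.72 and 11.77 in the 1-day knockdowns and 11.59, 11.54 and 11.79 in the 5-day controls. In the 5-day knockdowns it read 11.60, 10.25 and 12.04, where the low value is again knockdown 2. Its time differences were 0.057 in controls (limma adjusted p = 0.963) and -0.28 in knockdown cells (adjusted p = 0.684), with a 95% interval of -0.88 to 1.00 for the controls. The dimmer probe set, 1424714_at, had 1-day group means of 5.91 and 5.80, below the filter mark, so that it too was tested because of its 5-day levels. It was higher at 5 days by 2.40 in controls (5.28-fold, SE 0.45, adjusted p = 0.0196) and by 2.87 in knockdown cells (7.30-fold, SE 0.45, adjusted p = 0.00746), and with no filter adjusted p was 0.0162 and 0.00555. On it knockdown 2 was the highest of the 12 arrays, at 8.89. The mean of both probe sets passed in both conditions, with differences of 1.23 in controls (adjusted p = 0.0420) and 1.30 in knockdown cells (adjusted p = 0.0281). Which of them reads the Aldoc transcript better was not tested.

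Among the secreted proteins, Sparcl1 had the largest time difference of the called astrocyte genes in each condition, by brightest probe sets. It read 9.76, 7.99 and 9.21 in the 1-day controls and 12.18, 11.68 and 11.90 in the 5-day controls. In knockdown cells it read 9.59, 7.83 and 7.93 at 1 day and 12.10, 11.81 and 12.10 at 5 days. Every 5-day array was above every 1-day array. Sparcl1 rose by 2.93 in controls (7.63-fold, SE 0.52, limma adjusted p = 0.0150) and by 3.55 in knockdown cells (11.8-fold, SE 0.52, adjusted p = 0.00474). At 1 day the weak set, at 9.21 to 9.76, read higher than the strong set, at 7.83 to 7.99. With the weak set alone, which holds 2 control arrays at 1 day, the control difference was 2.43 (adjusted p = 0.00349). The strong set holds only short term control 2 among controls, and against that array the difference was 3.93, with a spread taken from the other groups.

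Clu was read by 4 kept probe sets, of which 1 parted from the rest on long term knockdown 2. The brightest read 8.99, 9.73 and 9.93 in the 1-day controls and 10.62, 11.04 and 11.47 in the 5-day controls. In knockdown cells it read 9.02, 9.68 and 9.56 at 1 day and 10.91, 10.64 and 11.63 at 5 days. The time points did not overlap in either condition. The difference was 1.64 in knockdown cells (3.12-fold, SE 0.36, limma adjusted p = 0.0301) and 1.49 in controls (SE 0.36), which missed the threshold (adjusted p = 0.0536). In the controls 2 of the other 3 Clu probe sets passed, with differences of 1.52 and 1.37, and in the knockdown cells 3 of the 4 passed. The one that passed in neither condition, 1418626_a_at (1.49 and 1.45, adjusted p = 0.133 and 0.1002), read 8.76 on long term knockdown 2 and 10.11 and 10.80 on the other 5-day knockdowns. The other 3 read 10.57 to 10.74 on that array.

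Apoe, the main lipid carrier of the brain, had a time difference near that of Sparcl1 and a wider spread. It read 7.65, 5.75 and 8.11 in the 1-day controls and 7.62, 5.72 and 5.75 in the 1-day knockdowns. The 5-day controls read 10.60, 9.69 and 10.42 and the 5-day knockdowns 11.41, 6.71 and 10.004. Controls did not overlap between times, but knockdown 2 fell within the 1-day range, and the differences of 3.06 in controls (SE 1.08, limma adjusted p = 0.167) and 3.01 in knockdown cells (SE 1.08, adjusted p = 0.119) did not pass. With 1 array left out the latter ran from 1.99 (without knockdown 1, adjusted p = 0.301) to 4.35 (without knockdown 2, adjusted p = 0.0287). It also passed without short term knockdown 1 (3.64, adjusted p = 0.0422), and adjusted p reached 0.339. Markers of microglia, which also make Apoe, varied on the same arrays: the mean over the 11 kept of 12 microglial genes was 7.56 to 8.31 on the weak set, 5.68 to 5.83 on the strong set and 7.68 to 11.10 at 5 days. It was 11.10 on long term knockdown 1, where Apoe was highest, and 9.25 on knockdown 2, where Apoe was lowest of the 5-day arrays. The part of microglial RNA in the Apoe values was not tested.

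S100b lay below the filter mark, with a mean of 5.29 over the 12 arrays on the brighter of its 2 probe sets by that mean. That probe set read 4.48 to 6.02 in the 1-day controls, 4.80 to 5.60 in the 1-day knockdowns, 5.10 to 6.24 in the 5-day controls and 4.79 to 5.87 in the 5-day knockdowns. All 4 groups overlapped. The other S100b probe set, 1419383_at, read higher on every 5-day array than on any 1-day array of the same condition. The differences were 1.33 in controls and 1.18 in knockdown cells, and neither passed with all probe sets tested (limma adjusted p = 0.102 and 0.106).

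**Figure D2:**
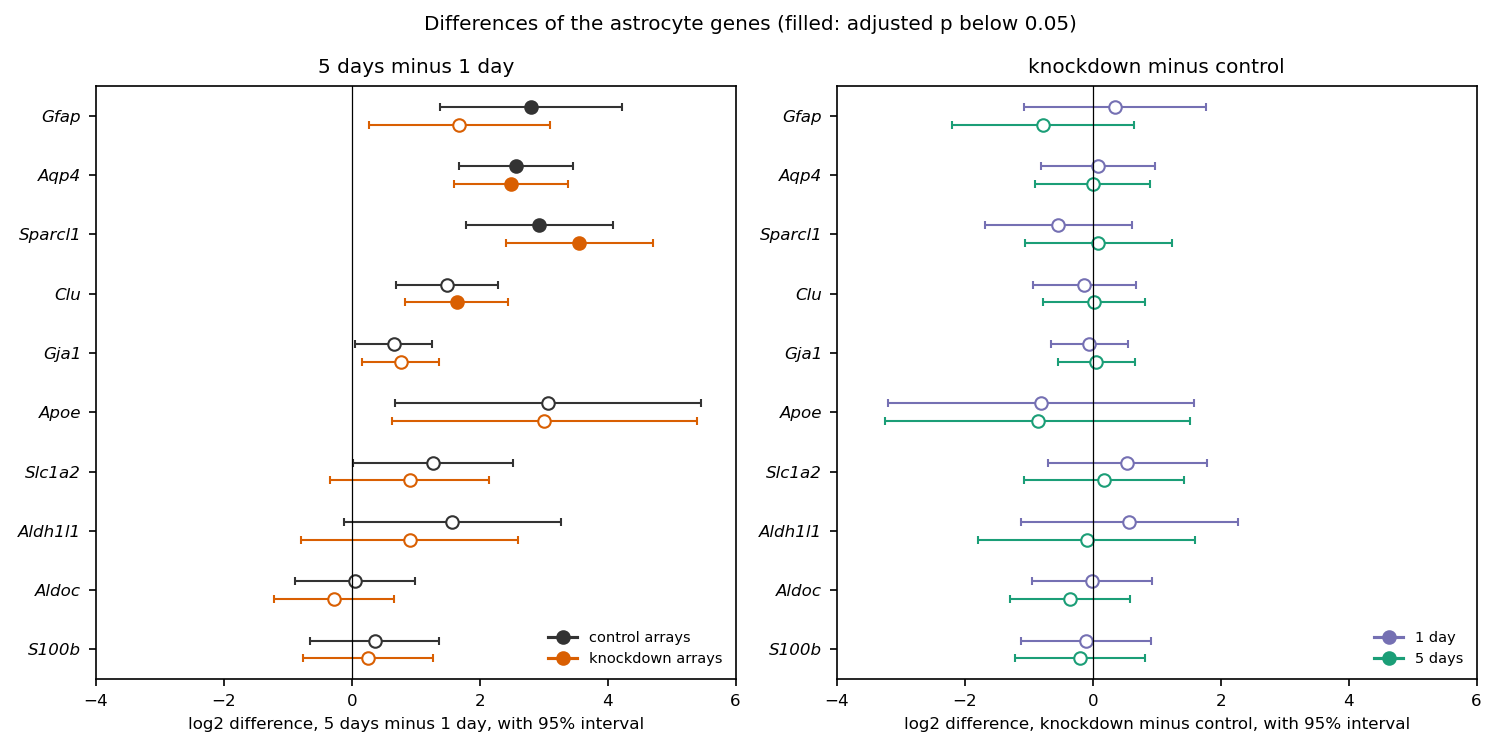
Log2 differences of the brightest probe set of each astrocyte gene with 95% confidence intervals from limma, for 5 days minus 1 day in control and in knockdown cells and for knockdown minus control at 1 and 5 days. Time differences ran from -0.28 (Aldoc, knockdown cells) to 3.55 (Sparcl1, knockdown cells), and every interval of a knockdown difference holds 0.

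Counted over the 9 genes kept by the filter, which leaves out S100b, 3 were called higher at 5 days in the controls and none lower, where 2.34% of 12263 genes were called higher and 1.44% lower. All 9 differences were above 0 (54% of all genes), and 7 of 9 genes had groups that did not overlap (20.1% of all genes). The median of the 9 was 1.57, and that of all genes 0.063. In the knockdown cells 3 of 9 were called higher (5.18% of all genes) and none lower (1.97%), 8 of 9 were above 0 (60.6%) and 4 of 9 did not overlap (18.3%). Their median was 1.64, and that of all genes 0.21. Of the 21 kept probe sets of these genes, 7 were called higher in the controls (2.02% of all kept probe sets) and 11 in the knockdown cells (4.05%). Probe sets of 1 gene are repeated readings and not separate members. In the controls 2 of the 7 were of Gfap and 2 of Clu, and in the knockdown cells 4 of the 11 were of Gja1 and 3 of Clu. Both Gfap probe sets and the dimmer Aldoc probe set passed the filter through their 5-day levels, so these counts are a description and cover neither all 10 genes nor all 29 probe sets. Of the 18 probe sets above the mark at 1 day in at least 1 condition, 4 were called higher in the controls and 9 in the knockdown cells.

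Calls other than that of Aqp4 rested on single arrays in the controls. Aqp4 stayed past the threshold in the controls when any 1 array was left out (adjusted p up to 0.0472), whereas the count of called genes ran from 1 to 4. Sparcl1 in controls missed it without long term control 1, 2 or 3 (adjusted p = 0.0786, 0.0612 and 0.0619) or without short term control 3 (0.0538), and Gfap missed it (adjusted p up to 0.165) unless the array left out was short term knockdown 1, long term knockdown 2 or long term knockdown 3. In knockdown cells Aqp4 and Sparcl1 stayed past the threshold without any 1 array (adjusted p up to 0.0392 and 0.0298), and Clu missed it without short term knockdown 2 or 3, long term control 2 or long term knockdown 1 or 3 (adjusted p up to 0.101). With the scanner as a block, which sets the short term arrays against long term controls 2 and 3 only, Aqp4 alone was called in the controls (2.54, adjusted p = 0.0450). None was called in the knockdown cells, where all 3 long term arrays came from the second scanner and Aqp4 differed by 2.40 (adjusted p = 0.723).

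**Figure D3:**
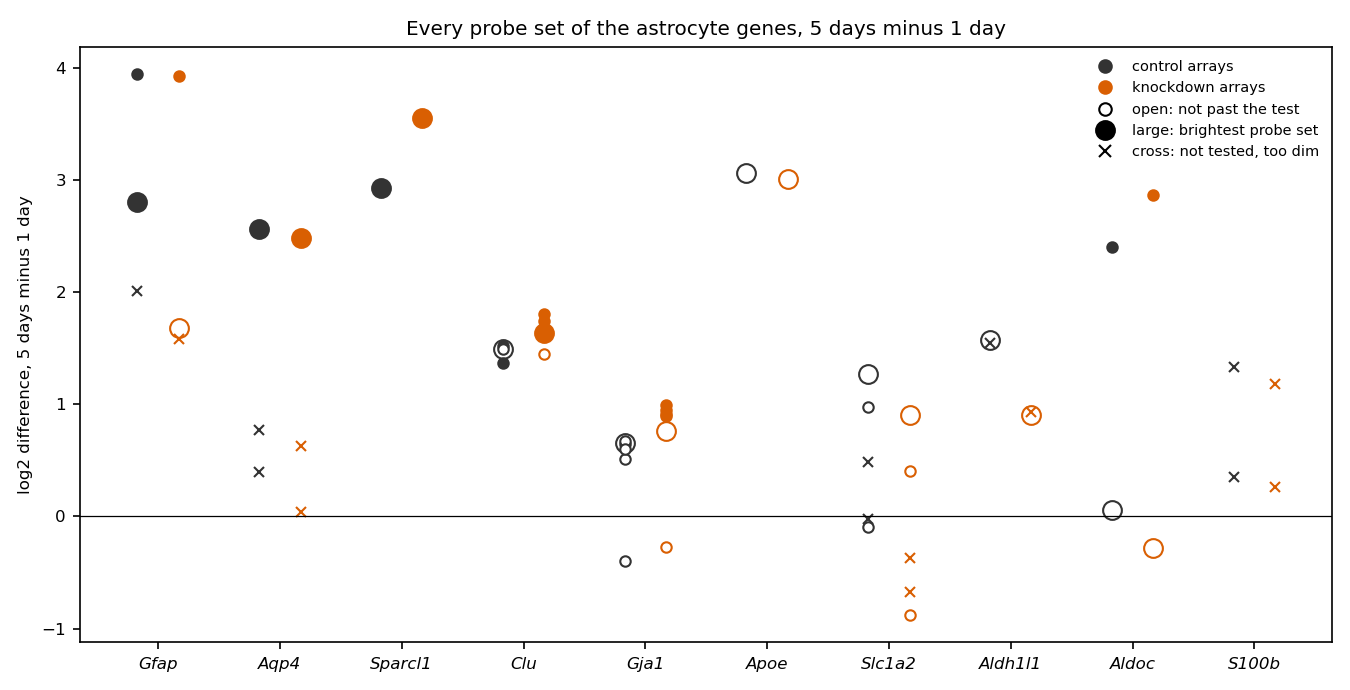
Log2 difference between 5 days and 1 day for each probe set of the astrocyte genes in control and in knockdown cells, with filled points past the threshold, large points for the brightest probe set and crosses for probe sets too dim to test. Of the 21 probe sets kept by the filter 7 were called higher in controls and 11 in knockdown cells; both Aldoc probe sets and the last of the 6 Gja1 probe sets show where probe sets of 1 gene part.

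Knockdown and control cells were compared at each time for the same genes. At 1 day the differences ran from -0.81 (Apoe) to 0.57 (Aldh1l1), 4 of 9 above 0 (32.7% of all genes), with a median of -0.015 against -0.17 over all genes. At 5 days they ran from -0.86 (Apoe) to 0.18 (Slc1a2), 5 of 9 above 0 (51.6% of all genes), with a median of 0.0023 against 0.010. Groups overlapped for every one of the 9 genes at both times (of all genes, 0.522% did not overlap with higher and 1.17% with lower values at 1 day, and 1.66% each way at 5 days), and limma called none of them, where it called 0% of all genes in either comparison (smallest adjusted p over all probe sets 0.832 at 1 day and 1 at 5 days). At an unadjusted p below 0.05 there were 120 probe sets at 1 day and 34 at 5 days, and no brightest probe set of the 10 genes was among them.

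The precision of these comparisons differed between genes. For Gja1, the most tightly read, the 95% interval of the difference was -0.66 to 0.55 at 1 day and -0.54 to 0.66 at 5 days. For Aqp4 it was -0.82 to 0.98 and -0.89 to 0.90. For Apoe it was -3.19 to 1.58 and -3.25 to 1.53, so that a change of several fold in either direction could not be seen. Gfap was 0.34 higher in the 1-day knockdowns and 0.78 lower in the 5-day knockdowns on its brightest probe set (SE 0.64 each), and the 5-day difference was -0.052 without knockdown 2. Apoe at 5 days went from -0.86 to 0.47 without that array. The change of the knockdown effect from 1 to 5 days ran from -1.12 (Gfap) to 0.62 (Sparcl1), with 3 of 9 above 0 (63.3% of all genes). It was called for none of the 9 genes (limma adjusted p = 1 for each). Over the whole array 55 probe sets had an unadjusted p below 0.05, also far below a share of 0.05.

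Other genes of astrocytes and of neighbouring cell types give the setting. Of 30 other astrocyte genes, 27 were kept, with median differences of 1.40 in controls and 1.35 in knockdown cells. In each condition 25 of the 27 were above 0 (54% and 60.6% of all genes). In the controls Fgfr3 was lower at 5 days without overlap (-0.65). At 5 days 5 were called higher in the controls (2.34% of all genes) and 10 in the knockdown cells (5.18%), and none lower. Among those called, 1 had both 1-day group means below the filter mark and was tested because of its 5-day levels. It was Chrdl1, called in both conditions and named after its values were seen. Hepacam, an adhesion protein of astrocyte endfeet, was higher by 4.16 in controls and 3.08 in knockdown cells. Slc6a11, a GABA transporter, was higher by 3.98 and 3.88. Hepacam and Slc6a11 also lay below or around the filter mark of 6.51 at 1 day, so their passing of the filter drew on their 5-day levels. Hepacam read 5.29 to 6.05 in the 1-day controls and lay on both sides of the mark in the 1-day knockdowns, up to 7.36. Slc6a11 read 5.89 to 6.93 in the 1-day knockdowns and lay on both sides of the mark in the 1-day controls. Slc4a4, a bicarbonate transporter, and Dio2, which activates thyroid hormone, were higher in controls by 2.62 and 2.18. Atp1b2, a sodium pump subunit, and S1pr1, a sphingosine phosphate receptor, were higher in knockdown cells by 2.29 and 2.05. Without long term knockdown 2 the counts were 9 (4.5% of all kept probe sets called) and 9 (2.95%). These and the following shares are of probe sets called in either direction, whereas the counts are of genes. With the weak set alone at 1 day, 8 were called in controls (4.43% of all) and 5 in knockdown cells (0.803%), the latter against 1 short term array. With the strong set alone 12 were called in controls (25% of all), again against 1 short term array, and 18 in knockdown cells (45.9%). With 1 array left out they ran from 4 to 9 in controls and, in knockdown cells, from 3 (without long term knockdown 3) to 17 (without short term knockdown 1). Hepacam was 1.12 higher in the 1-day knockdowns at an unadjusted p of 0.0147 (limma adjusted p = 0.832), and Slc4a4 0.83 higher (adjusted p = 0.832). At 5 days Ndrg2 and Ntsr2 differed by -0.40 and -0.45 between knockdown and control (adjusted p = 1 for both).

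Of 22 gliogenesis factors, 19 were kept. The list holds regulators named above and other genes such as Smad1, Zbtb20, Notch1 and Hes5. None was called in the controls and 1, Stat3, was called in the knockdown cells (1.69 higher, limma adjusted p = 0.0193). Without overlap, 5 were higher at 5 days in the controls (20.1% of all genes) and 3 lower, Nfia, Hes5 and Notch1. In the knockdown cells 5 were higher in this way (18.3% of all genes) and 2 lower. Their medians were 0.26 and 0.20, near those of all genes. Of 12 radial glial genes, all kept, 2 were called higher in controls, Tnc (2.17) and Ptprz1 (1.55), and 3 in knockdown cells, Tnc (2.15), Ptprz1 (1.76) and the glutamate transporter Slc1a3 (1.20). Their medians were 0.021 and 0.013, with 6 of 12 above 0 in each condition and none called lower. In the controls 5 of the 12 were higher at 5 days without overlap (20.1% of all genes) and 5 were lower. The lower ones were Pax6, Nes, Hes5, Prom1 and Notch1. In the knockdown cells 4 were higher without overlap (18.3% of all genes) and 4 lower. Hes5 had the lowest difference, -1.49 in controls and -1.42 in knockdown cells. The lists share genes: Slc1a3 is also counted among the other astrocyte genes, and Hes1, Hes5 and Notch1 among the gliogenesis factors. Of 8 oligodendrocyte precursor genes, 6 were kept, and 3 were called higher in both conditions: the growth factor receptor Pdgfra (4.23 and 4.27), the transcription factor Olig1 (3.96 and 3.56) and the proteoglycan Cspg5 (3.41 and 3.67). Of these Olig1 lay below the filter mark of 6.51 at 1 day in both conditions, and the other ones lay around it. Pdgfra read 6.14 to 7.01 in the 1-day controls and 6.09 to 6.62 in the 1-day knockdowns. Cspg5 read 6.20 to 7.30 and 5.57 to 7.47 in the same order. Slco1c1, a thyroid hormone transporter placed here in the endothelial list, was higher by 3.43 and 4.09. It was the only one called of 11 kept endothelial and pericyte genes. It read 6.93 to 9.10 on the 1-day arrays and 11.24 to 12.83 on the 5-day arrays, whereas the mean of its list overlapped between times. None of the 11 neuronal, 11 microglial and 7 meningeal genes kept was called in either condition. All 11 microglial genes were above 0 in both conditions, with median differences of 1.48 in controls and 2.93 in knockdown cells, against the 1.57 and 1.64 of the astrocyte genes. The endothelial and pericyte medians were 1.56 and 2.51, the neuronal 0.62 and 0.39 and the meningeal -0.34 and -0.27.

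The mean of each list on each array was set beside that of the astrocyte genes. The mean over the 9 astrocyte genes was 8.58 to 8.82 in the 1-day controls, 8.53 to 8.85 in the 1-day knockdowns, 10.29 to 10.84 in the 5-day controls and 9.51 to 10.89 in the 5-day knockdowns, where 9.51 is knockdown 2. The oligodendrocyte precursor mean was 6.52 to 6.73, 6.65 to 6.96, 9.01 to 9.36 and 8.55 to 9.40 in the same order. The microglial mean was 5.83 to 8.31, 5.68 to 7.56, 7.96 to 10.26 and 7.68 to 11.10, and the endothelial mean was 6.86 to 7.85, 6.74 to 7.72, 7.59 to 10.19 and 7.60 to 10.75. The neuronal mean, over 11 kept markers of the cell type that the control source names, was 10.54 to 11.31, 10.31 to 11.28, 11.02 to 11.18 and 10.93 to 11.22. The astrocyte and oligodendrocyte precursor means separated the time points without overlap, and the microglial, endothelial and neuronal means did not. The part of a different mix of cells in the time differences was not tested.

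**Figure D4:**
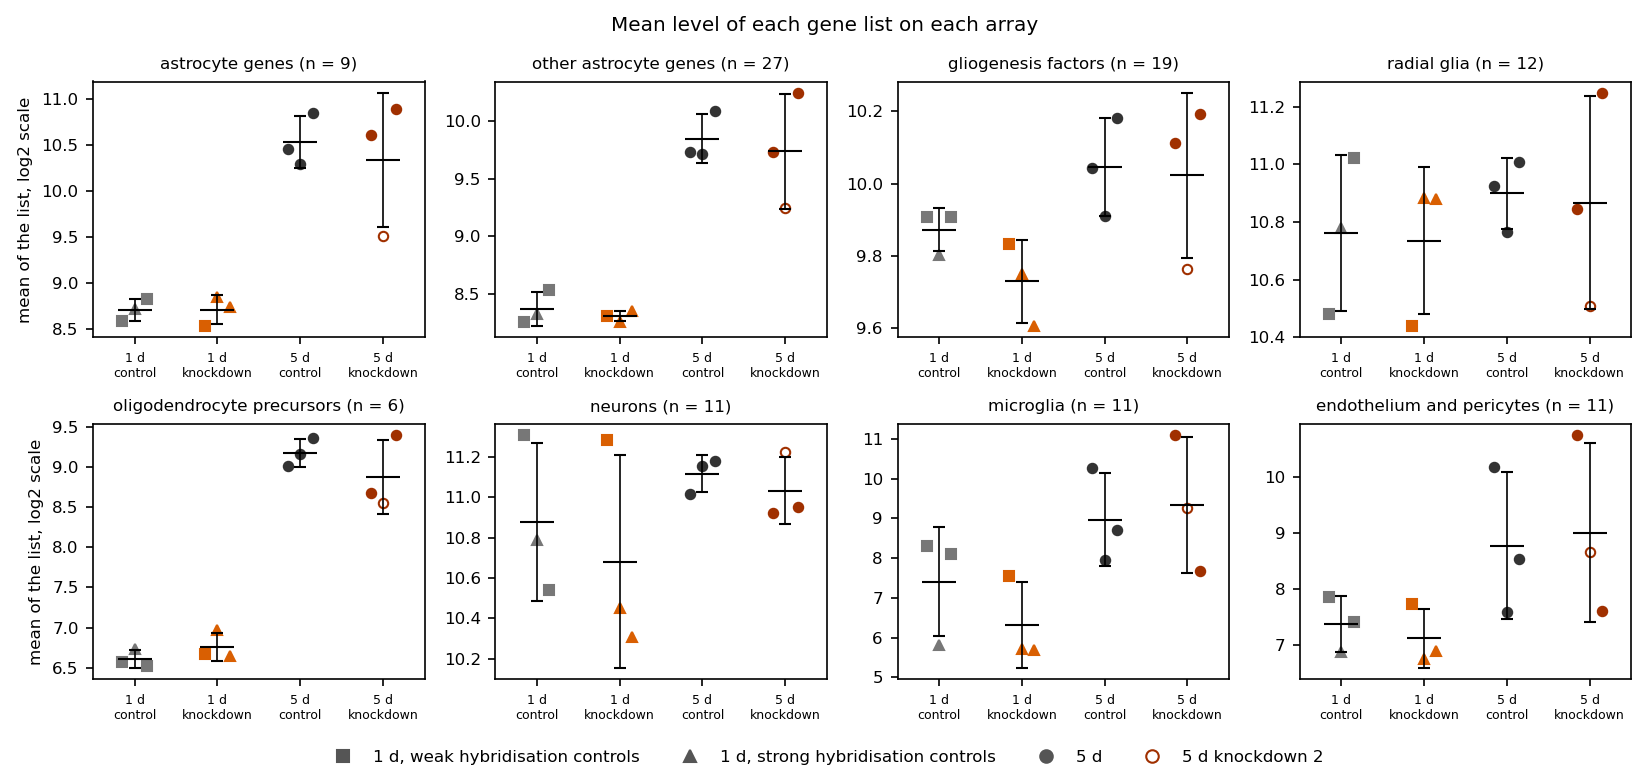
Mean log2(normalized intensity + 16) over the kept genes of each list on each of the 12 arrays, by group; squares and triangles are short term arrays with weak and strong hybridisation controls and the open circle is long term knockdown 2. The astrocyte mean lay at 8.53 to 8.85 at 1 day and 9.51 to 10.89 at 5 days, whereas the microglial mean at 1 day split by hybridisation control set.

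The astrocyte genes were also compared with their own median profile, the median over the 9 genes of their values centred on each gene's mean. Clu was nearest to it, with a root mean square difference of 0.27 over the 12 arrays, followed by Gja1 at 0.51 and Slc1a2 at 0.56, and Apoe was farthest at 1.44. Among 12254 other genes the closest to this profile were Nab2 (0.24), Fzd5 (0.25), Atp5l (0.28), Creg2 (0.28) and Mapk4 (0.29). Nab2 encodes a corepressor of early growth response factors, Fzd5 a Wnt receptor, Atp5l a subunit of mitochondrial ATP synthase and Mapk4 an atypical MAP kinase. Such likeness over 12 arrays that fall into 2 time points is a description of these arrays.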

How the data were processed

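Probe set intensities were read from the value table that the authors deposited, 1 linear intensity for each of 45101 probe sets on 12 arrays. How probes were summarised, corrected for background and scaled was not given in the sources used here; instrument files gave lot, station and scanner, and no expression value. Symbols came from the platform annotation: 34945 probe sets had 1 symbol, 932 several and 9160 none; 34754 were updated through Entrez IDs, and a probe set with several symbols named no gene.

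The table was quantile normalized, 16 was added and log2 taken. Without the 64 control probe sets, the upper 60% by mean over all arrays was kept (27022 probe sets, 12263 genes). Means of the 4 groups were fitted with limma 3.58.1 in R 4.3.3, without covariates, and p-values were adjusted by Benjamini-Hochberg over the kept probe sets. The scripts were tested on simulated data. No 2 arrays shared more than 0.397% identical values. The labels do not tie the 3 samples of a group to separate animals. A p-value here covers only their spread, which may be technical, and the number of arrays limits precision.

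The members and lists were chosen with earlier results of these data known. Named were all 10 members, up to 4 genes of each list with the largest time difference past the threshold, the 2 other astrocyte genes of smallest p in each knockdown comparison, Zfp335 and the 5 closest profiles. Replicate numbers did not pair the samples: same-numbered deviations correlated at 0.92, 0.90 and -0.42 at 1 day and at -0.13, -0.016 and 0.096 at 5 days. Alternatives covered normalization, pseudocount, filter, probe set rule, blocks, array weights and leaving out arrays; the blocks and splits for the time comparisons were chosen after seeing the data.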

Additional observations from a re-analysis of the deposited data

How the results depend on the processing

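Limits come from 3 arrays a group, a chip lot shared only by the short term arrays, scanners split within the long term arrays and S100b, Gfap at 1 day and 2 Aqp4 probe sets near background. The replicate block left 0 calls for the knockdown comparisons and their difference, of the array and of the astrocyte genes; the time comparisons could not be fitted with it. Probe sets called between times, 886 in controls and 1616 in knockdown cells, became 13122 and 13508 without normalization, which moved the median of all genes by 1.05 and 0.97, with 9 and 8 astrocyte genes called. They became 4056 and 5419 with a common 75th percentile, where calls higher at 5 days were 51.5% and 48.3% against 61.7% and 67.7%, and 5 astrocyte genes were called in controls. They were 1702 and 3026 without a filter and 279 and 44 with the scanner as a block (1 and 0 astrocyte genes). Counted in genes, 464 and 876 were called by brightest probe sets and 528 and 918 by gene means (5 astrocyte genes each). With the strong set alone 6753 and 12415 probe sets were called, and with the weak set alone 217 in knockdown cells; the strong set holds 1 control array and the weak set 1 knockdown array at 1 day, each assumed to vary like the other groups. Array weights gave 16962 and 13442 calls (9 and 6 astrocyte genes), 21029 for the 1-day knockdown comparison (5 astrocyte genes) and 10712 for the difference of effects (4 astrocyte genes). The weights were very uneven, from 0.0035 on long term knockdown 3 to 34.3 on long term control 2. At 1 day they were 12.6 on control 3, 9.48 on knockdown 3 and 0.14 to 1.98 on the other arrays. Why the weights raised the counts was not tested. Aqp4 in controls was called under each alternative run.

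No knockdown difference of an astrocyte gene passed in the reported fit, and several changed sign. At 1 day these were Aldoc (0.055) and Gja1 (0.047) without normalization, Gfap by gene means (-0.15), and Aqp4 (-0.22) and Aldh1l1 (-0.17) with the hybridisation control level as a block. Array weights turned Gfap (-0.48) and Gja1 (0.23), the weak set alone Aqp4 (-0.70), Sparcl1 (0.11) and Aldh1l1 (-0.32), and the strong set alone Aldoc (0.083) and Aldh1l1 (-0.027). At 5 days they were Sparcl1 (-0.021), Gja1 (-0.025) and Clu (-0.024) without normalization and Aqp4 (-0.044), Sparcl1 (-0.075), Gja1 (-0.079) and Clu (-0.078) with the 75th percentile. Gene means turned Aldoc (0.0063), Slc1a2 (-0.17) and Clu (-0.042), the scanner block Aqp4 (-0.056), Sparcl1 (-0.17), Gja1 (-0.12) and Aldh1l1 (0.065), and array weights Clu (-0.20) and Apoe (0.60). Among time differences, Aldoc turned in controls with array weights (-0.38) and the strong set (-0.019), and in knockdown cells without normalization (0.93), by gene means (1.30) and with the weak set (0.071); Aldh1l1 turned in knockdown cells with array weights (-0.097). The cause of these turns was not tested.

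With 1 array left out, the 1-day knockdown difference ran from -0.23 to 0.54 for Aqp4, -0.014 to 0.65 for Gfap, -0.20 to 0.11 for Gja1, 0.12 to 1.05 for Slc1a2, -0.26 to 0.19 for Aldoc, -0.12 to 1.36 for Aldh1l1, -1.11 to -0.15 for Sparcl1, -0.41 to 0.069 for Clu and -1.52 to -0.34 for Apoe. The 5-day one ran from -0.27 to 0.15 for Aqp4, -1.34 to -0.052 for Gfap, -0.14 to 0.25 for Gja1, -0.093 to 0.48 for Slc1a2, -0.72 to 0.17 for Aldoc, -0.46 to 0.24 for Aldh1l1, -0.033 to 0.22 for Sparcl1, -0.27 to 0.23 for Clu and -1.88 to 0.47 for Apoe. The Aldoc time difference ran from -0.19 to 0.27 in controls and -0.65 to 0.25 in knockdown cells. Called probe sets ran from 247 (without long term control 2) to 1520 in controls and from 341 (without short term knockdown 3) to 7727 in knockdown cells, both highest without short term knockdown 1, and called astrocyte genes from 1 to 4 and from 2 to 4; the knockdown comparisons and their difference had 0 calls each time.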
